A study of Mus musculus with 24 samples.

Results

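The tumour necrosis factor (TNF) superfamily was followed in mouse macrophages through 10 of its genes, 5 ligands (Tnf, Tnfsf9, Tnfsf10, Tnfsf15 and Tnfsf13b) and 5 receptors (Tnfrsf1a, Tnfrsf1b, Fas, Tnfrsf11a and Ltbr). They were picked by name, with earlier results of these data known, as the rows of the deposited count table whose gene IDs map to these symbols. All 10 were found among its 56941 gene rows. All 10 also passed the filter on low counts, which kept 14757 genes for testing. The cells were bone marrow-derived macrophages (BMDM), grown from flushed marrow in medium conditioned by L929 cells, a source of the macrophage growth factor M-CSF. They came from wild-type mice (WT), from Hdac9 KO mice, which lack a class IIa histone deacetylase, and from HDAC9 deltaCIS mice (dCIS), which lack a cis-regulatory element that the series title ties to HDAC9 expression. Each genotype was left untreated or given LPS, the bacterial ligand of the receptor TLR4, at 100 ng/ml for 6 hours. Each of the 6 groups had 4 libraries, 24 in all. The cells of every group, controls included, went through the same change from conditioned to unconditioned medium before treatment. The sources used here do not give strain, age, sex or the extent of each deletion. They also do not say whether the 4 libraries per group are separate mice or cultures, so the p-values speak only to the scatter among libraries, part or all of which may be technical.

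TNF superfamily ligands are mostly made as trimeric proteins in the cell membrane, and some, such as TNF itself, are cut off and act at a distance. Their receptors fall into those with an intracellular death domain, such as TNFR1 (Tnfrsf1a) and Fas, which can recruit caspases, and those that bind TRAF adaptors directly, such as TNFR2 (Tnfrsf1b), RANK (Tnfrsf11a) and the lymphotoxin beta receptor (Ltbr). Macrophages are a main source of TNF after LPS, and both NF-kB and interferon-driven factors are known to act on family genes in these cells.

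Promoters of 9 of the 10 genes could be matched in RefSeq sequence of build GRCm38.p6; Tnfsf9 was not among them. The 4 shown here belong to the genes that bracket the LPS results below: Tnf, the highest ligand, Tnfsf10, the gene with the largest rise, Tnfrsf1b, the highest receptor, and Tnfsf13b, the ligand that was not called. Each runs 5′ to 3′ over the 250 bases before an annotated start (for Tnfsf13b, the second of its starts), in lower case, with capitals marking matches to the motifs searched on both strands.
Tnf (chr17:35202008-35202257, minus strand): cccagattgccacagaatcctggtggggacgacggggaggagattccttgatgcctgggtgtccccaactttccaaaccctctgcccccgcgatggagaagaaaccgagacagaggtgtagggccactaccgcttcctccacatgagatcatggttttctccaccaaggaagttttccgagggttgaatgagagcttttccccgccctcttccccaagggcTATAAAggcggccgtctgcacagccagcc
Tnfsf10 (chr3:27316827-27317076, plus strand): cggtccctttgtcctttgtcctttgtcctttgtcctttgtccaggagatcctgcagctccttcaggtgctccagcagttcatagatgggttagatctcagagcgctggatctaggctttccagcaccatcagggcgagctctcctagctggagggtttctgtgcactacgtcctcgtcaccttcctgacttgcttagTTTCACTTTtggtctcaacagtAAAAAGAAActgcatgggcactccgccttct
Tnfrsf1b (chr4:145246871-145247120, minus strand): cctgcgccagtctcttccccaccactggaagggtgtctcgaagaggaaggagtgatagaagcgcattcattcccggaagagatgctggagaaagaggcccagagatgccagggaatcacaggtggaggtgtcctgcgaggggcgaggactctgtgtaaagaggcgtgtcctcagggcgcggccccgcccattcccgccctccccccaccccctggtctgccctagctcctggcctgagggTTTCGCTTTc
Tnfsf13b (chr8:10006383-10006632, plus strand): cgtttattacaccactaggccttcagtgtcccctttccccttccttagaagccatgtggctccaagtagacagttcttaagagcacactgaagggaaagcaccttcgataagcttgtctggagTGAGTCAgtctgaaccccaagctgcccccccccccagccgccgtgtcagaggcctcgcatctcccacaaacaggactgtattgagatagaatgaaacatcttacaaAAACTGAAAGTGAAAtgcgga

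In the Tnf promoter the capitals are a TATAAA box 29 to 24 bases before the start, a motif that 12.4% of 32851 RefSeq promoters of this length hold. Tnfsf10 carried TTTCNNTTT, the core that interferon-responsive elements share, at 53 to 45 bases and, on the other strand, at 31 to 23 bases before its start. Tnfrsf1b held it at 10 to 2 bases. Tnfsf13b held it at 21 to 13 and 15 to 7 bases before its second start, where the matches overlap. The window before the first start of Tnfsf13b held no match to any of the motifs. With either start of Tnfsf13b counted, TTTCNNTTT was thus found in 3 of the 9 genes, and in 9.37% of all promoters. The AP-1 motif TGANTCA was found in Tnfsf13b, 127 to 121 bases before its second start, and in Fas, 211 to 205 bases before the start. It was found in 6.75% of all promoters. No match to the NF-kB consensus was found in these windows of the 9 genes, against 7.25% of all promoters. Tnfsf10 and Tnfsf13b, at the opposite ends of the LPS response, both held TTTCNNTTT, Tnfsf13b only before its second start.

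Total counts per library lay between 14636058 and 19181707. Hdac9 RNA was nearly absent in KO, at 1.04 ± 0.218 CPM (counts scaled to library size times a trimmed mean of M-values, or TMM, factor; mean ± SD, n = 4, here and below) untreated against 11.2 ± 1.46 CPM in WT. In dCIS it was not lower than in WT. Untreated dCIS was at 15.6 ± 2.23 CPM, with every library above every WT one (log2 0.47, SE 0.197, not called). After LPS, dCIS was at 14.6 ± 5.26 and WT at 12.3 ± 2.83 CPM. All 9 macrophage markers examined were tested, with a summed level of 15954 to 27704 CPM per library. Most of this was Lyz2 (14363 ± 934 CPM in untreated WT), so the sum hides shifts of single markers. Untreated KO lay above untreated WT for Csf1r (958 to 1680 against 731 to 927 CPM) and Adgre1 (2555 to 3009 against 1675 to 2523 CPM). The other macrophage markers overlapped between these groups. With LPS, Fcgr1 went from 181 ± 21.6 to 1631 ± 105 CPM in WT. The 7 T and NK cell markers summed to at most 0.658 CPM and the 4 B cell markers to at most 0.311 CPM, so Tnf and other ligands that lymphocytes also make were measured with those markers close to 0. The 8 neutrophil markers summed to 0.968 to 4.67 CPM with Ly6g at 0 in all libraries, and the 5 dendritic cell markers to at most 1.42 CPM. Osteoclast markers summed to 70.3 to 135 CPM untreated and 34.6 to 67.2 CPM after LPS. The 8 fibroblast and endothelial markers summed to 1.25 to 2.81 CPM untreated and 9.20 to 14.9 CPM after LPS, with Col3a1 at 0. The rise was carried by Pecam1 (1.80 ± 0.663 to 6.73 ± 0.963 CPM in WT) and Cdh5 (0.141 ± 0.0659 to 3.29 ± 0.423 CPM). Col1a1, Col1a2, Pdgfra, Dcn and Tek had means of at most 0.138 CPM in every group. In bulk RNA, fewer cells of a type and less RNA per cell cannot be told apart. After LPS, dCIS libraries 3 and 4 had 17628 and 15997 genes detected, against at least 20458 in the other libraries. Among the 4 KO libraries after LPS, library 2 was the highest in 8 of the 10 genes, and among the untreated KO libraries, library 2 was the lowest in 6 and the highest in 4.

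Untreated macrophages of all 3 genotypes ranked the 10 genes identically once levels were divided by exon length (CPM per kilobase, kb). In WT, Tnfrsf1b led at 133 ± 12.7 CPM per kb, followed by Tnf at 72.1 ± 20.7, Tnfrsf1a at 60.7 ± 1.47, Ltbr at 30.0 ± 1.02 and Tnfrsf11a at 12.5 ± 0.59 CPM per kb. Fas (6.02 ± 1.61) and Tnfsf9 (5.46 ± 0.547 CPM per kb) came next. Tnfsf15, Tnfsf10 and Tnfsf13b were lowest, at 0.321 ± 0.0382, 0.184 ± 0.0227 and 0.167 ± 0.0329 CPM per kb. Neighbours in this order whose means differed by less than the larger of their SDs were Tnf and Tnfrsf1a, Fas and Tnfsf9, and Tnfsf10 and Tnfsf13b. Only Tnfsf10 and Tnfsf13b differed by less than both SDs. After LPS in WT, Tnf came first at 1081 ± 198 CPM per kb and Tnfrsf1b second at 758 ± 76.8 CPM per kb. Tnfrsf1a at 169 ± 6.61 and Tnfsf9 at 52.1 ± 5.65 CPM per kb came next. Fas, Ltbr, Tnfsf10, Tnfrsf11a and Tnfsf15 then lay close together, between 39.6 ± 2.02 and 23.8 ± 4.47 CPM per kb, and Tnfsf13b stayed last at 0.119 ± 0.037 CPM per kb. Exon lengths come from the GENCODE M21 annotation, and which isoforms the cells make was not measured.

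**Figure D1:**
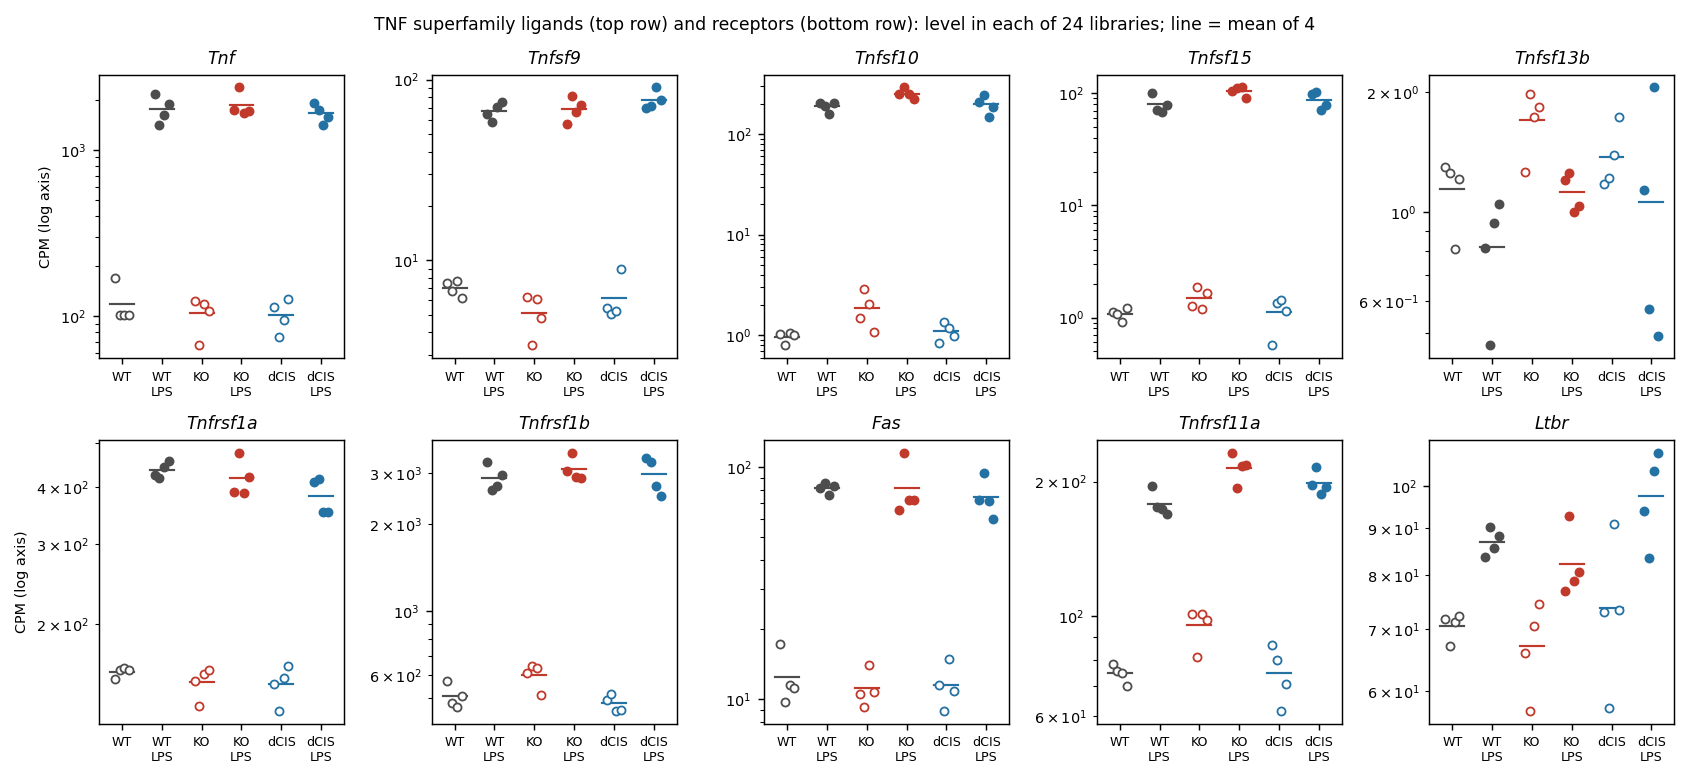
Level of each gene (CPM, log axis, a separate range per panel) in every library, ligands in the top row and receptors in the bottom row, with open circles for untreated and filled circles for LPS-treated libraries and a line at the mean of 4. For 8 of the genes all LPS libraries sit above all untreated ones, while Tnfsf13b does not rise and Ltbr moves little, with overlap in dCIS.

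LPS raised 9 of the 10 genes in each genotype, and Tnfsf13b was the exception each time. Over all 14757 genes, 30.4% were called higher in WT, 30.9% in KO and 31.3% in dCIS, and 25.9% were called higher in all 3, as 9 of these 10 genes were. Calls are edgeR quasi-likelihood tests with a Benjamini-Hochberg adjusted p below 0.05. For the 10 genes the median log2 fold change was 2.61, 2.62 and 2.66 in WT, KO and dCIS, beside 0.00, 0.02 and -0.05 over all genes tested. The ligands ranged more widely than the receptors, from -0.48 to 7.60 in WT against 0.30 to 2.72.

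Tnf, the founding ligand of the family, stood at 169, 101, 101 and 101 CPM in untreated WT libraries 1 to 4 and at 2166, 1419, 1616 and 1886 CPM after LPS. Library 1 was the highest of its group on both occasions, and no treated library came near an untreated one. The log2 fold change was 3.91 (SE 0.196, adjusted p 1.72e-14), a 15.0-fold rise. In KO, Tnf was at 124, 66.6, 119 and 108 CPM untreated and 1729, 2371, 1663 and 1713 CPM after LPS, with library 2 lowest before and highest after treatment. In dCIS it was at 113, 74.5, 94.3 and 127 CPM untreated and 1916, 1741, 1414 and 1586 CPM after LPS. The log2 fold changes were 4.17 in KO and 4.03 in dCIS (SE 0.196 in both), and untreated and treated libraries did not overlap.

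Tnfsf10, which encodes TRAIL, a ligand that can trigger cell death through its receptors, was near the detection limit before LPS. Untreated WT libraries held 17 to 22 counts of it, or 1.02, 0.792, 1.05 and 1.02 CPM, and LPS brought them to 205, 192, 160 and 202 CPM. The log2 difference was 7.60 (SE 0.234, adjusted p 5.9e-20), the largest among the 10 genes. KO libraries went from 1.50, 2.89, 2.03 and 1.08 CPM to 252, 291, 248 and 222 CPM (log2 7.05, SE 0.197). The 4 treated KO libraries were all above the 4 treated WT libraries. In dCIS the levels were 0.846, 1.36, 1.19 and 0.976 CPM untreated and 211, 244, 149 and 185 CPM after LPS (log2 7.49, SE 0.226).

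Tnfsf15, the ligand TL1A that co-stimulates lymphocytes through DR3, followed the same course. WT libraries held 1.11, 1.07, 0.905 and 1.21 CPM untreated and 101, 70.3, 68.8 and 78.7 CPM after LPS. The log2 fold change was 6.20 in WT (SE 0.213), 6.11 in KO (SE 0.194) and 6.27 in dCIS (SE 0.21). Treated KO libraries lay between 91.5 and 113 CPM and treated dCIS libraries between 71.0 and 103 CPM, so both overlapped the WT range. Tnfsf9, the ligand of the co-stimulatory receptor 4-1BB, rose from 7.04 ± 0.705 to 67.2 ± 7.29 CPM in WT (log2 3.25, SE 0.168), from 5.14 ± 1.35 to 69.2 ± 10.0 CPM in KO (log2 3.76) and from 6.18 ± 1.86 to 77.4 ± 9.29 CPM in dCIS (log2 3.64).

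Tnfsf13b encodes BAFF, a survival factor for B cells, and was the lowest of the 10 genes per kb, with 6 to 49 counts per library. It was at 1.30, 1.26, 0.810 and 1.21 CPM in untreated WT and 0.817, 0.466, 0.941 and 1.05 CPM after LPS. The ranges overlapped, and the log2 fold change of -0.48 (SE 0.355, 95% interval -1.18 to 0.21) had an adjusted p of 0.243. In KO all 4 treated libraries (1.00 to 1.26 CPM) were below the lowest untreated one (1.26 CPM), and the log2 value was -0.60 (SE 0.334, adjusted p 0.121). In dCIS the treated libraries spread from 0.491 to 2.05 CPM, and the log2 fold change was -0.36 (SE 0.336, adjusted p 0.36). Without dCIS LPS library 3, which had the 2.05 CPM, the value was -0.90 (adjusted p 0.0179), and a fit of the KO groups alone gave -0.68 (adjusted p 0.0233). Whether Tnfsf13b fell was thus not decided at this depth.

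**Figure D2:**
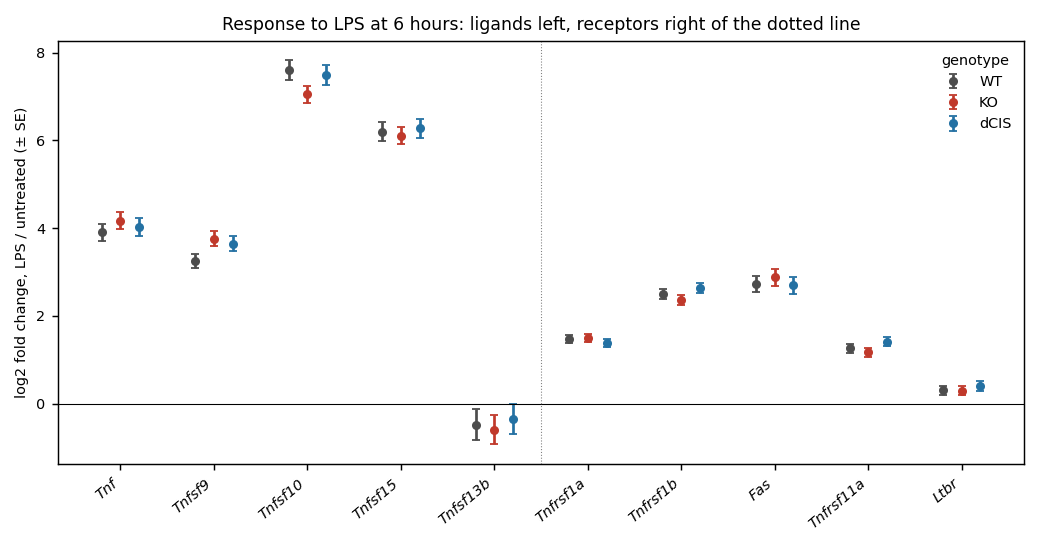
Log2 fold change of LPS against untreated (vertical axis, ± SE) for the 5 ligands, left of the dotted line, and the 5 receptors, right of it, in WT, KO and dCIS. Tnfsf10 and Tnfsf15 lie between 6.11 and 7.60, Tnf and Tnfsf9 between 3.25 and 4.17, Tnfsf13b below 0, and the receptors between 0.30 and 2.88.

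Among the receptors, Fas and Tnfrsf1b rose most. Fas, a death receptor for Fas ligand, went from 17.2, 9.69, 11.5 and 11.2 CPM in untreated WT to 81.7, 86.0, 76.1 and 83.2 CPM (log2 2.72, SE 0.185, adjusted p 2.4e-12). KO and dCIS gave log2 fold changes of 2.88 and 2.70 (SE 0.186 in both), and treated KO library 2, at 116 CPM, was far above the other treated KO libraries (65.6 to 72.6 CPM). Fas ligand itself (Fasl) was too low to be tested, with a mean of at most 0.0235 CPM in any group. Tnfrsf1b, the TNF receptor that lacks a death domain and binds TRAF2, went from 576, 483, 466 and 509 CPM to 3280, 2628, 2711 and 2959 CPM in WT. Its log2 fold change was 2.51 in WT, 2.36 in KO and 2.63 in dCIS (SE 0.113 in each), with no overlap of treated and untreated libraries.

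Tnfrsf1a, the TNF receptor with a death domain, rose less, from 152, 158, 160 and 159 CPM to 426, 420, 443 and 458 CPM in WT (log2 1.47, SE 0.0901, adjusted p 1.54e-13). The log2 fold change was 1.49 in KO and 1.38 in dCIS. Its untreated WT libraries varied by a coefficient of variation of 2.43%, the lowest of the 10 genes in that group, while those of Tnf varied by 28.7%. Tnfrsf11a (RANK, the receptor through which RANKL drives osteoclast formation) went from 78.3, 75.7, 74.8 and 69.9 CPM to 195, 175, 174 and 170 CPM in WT (log2 1.26, SE 0.0973, adjusted p 1.85e-11). KO gave 1.17 and dCIS 1.41. The summed osteoclast markers given above were lower after LPS, a difference carried by Atp6v0d2 (88.9 ± 20.5 to 39.8 ± 7.92 CPM in WT). Acp5 went from 6.23 ± 1.39 to 10.1 ± 1.63 CPM and Ctsk from 6.39 ± 0.85 to 6.13 ± 0.832 CPM in WT, and Calcr was at 0 in both WT groups. Their part in the result for Tnfrsf11a was not tested. RANKL (Tnfsf11) and its decoy receptor (Tnfrsf11b) were too low to be tested.

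Because Tnfrsf1a and Tnfrsf1b bind the same ligand, the ratio of their counts was followed in each library, a measure that does not depend on how libraries are scaled. The log2 ratio of Tnfrsf1b to Tnfrsf1a was 1.92, 1.61, 1.54 and 1.68 in untreated WT and 2.95, 2.64, 2.61 and 2.69 after LPS. In each genotype every LPS-treated library had a higher ratio than every untreated one. The group means differed by 1.04 in WT, 0.87 in KO and 1.24 in dCIS. Each comparison had an exact 2-sided permutation p of 0.0286 (n = 4 against 4), the smallest the design allows. After Benjamini-Hochberg adjustment over 9 comparisons it was 0.0857, above 0.05. At that smallest p the LPS comparisons alone could not have come under 0.05, however large the difference, so no conclusion is drawn from the adjusted value. Between genotypes the ratio differed by -0.06 to 0.33, and the exact permutation p of these comparisons (n = 4 against 4) ranged from 0.0571 to 0.914.

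Ltbr, which binds the lymphotoxin heterotrimer and LIGHT and signals to the non-canonical NF-kB pathway, moved least among the receptors. It was at 71.7, 67.0, 71.3 and 72.3 CPM in untreated WT and 83.8, 90.2, 85.6 and 88.2 CPM after LPS. The log2 fold change was 0.30 in WT (adjusted p 0.0211) and 0.30 in KO (adjusted p 0.0227). It was 0.40 in dCIS (adjusted p 0.00249), where the libraries overlapped, and the SE was 0.111 in each genotype. The WT call was lost without untreated library 2 (adjusted p 0.0562) or LPS library 2 (0.0505), and the KO call without untreated library 2 (0.099), LPS library 2 (0.0928) or both (0.259). The dCIS call was lost without LPS libraries 3 and 4 (0.083). DESeq2, RLE factors and a fit of the KO groups alone also did not call it in KO (0.0587, 0.0615 and 0.0616). Over all alternatives, Ltbr was called in 13 of 17 in WT, 10 of 18 in KO and 16 of 19 in dCIS. These include library size alone, where it was called lower.

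The direction of the Ltbr value also turned with the scaling. LPS libraries had TMM factors of 0.695 to 0.826 and untreated ones 1.29 to 1.36. With library size alone, without such factors, the log2 fold change of Ltbr was -0.51 in WT, -0.53 in KO and -0.35 in dCIS, and Tnfsf13b was called lower (-1.29, -1.41 and -1.10). The median of all genes moved with it, by -0.805, -0.818 and -0.760, and by -0.275, -0.263 and -0.288 with upper quartile factors, under which Ltbr was at 0.02, 0.03 and 0.12 and not called. Of all genes called, 49.5% were higher after LPS in WT with TMM, 17.8% with library size alone and 35.0% with upper quartile factors. In KO these shares were 50.2%, 17.7% and 36.3%, and in dCIS 48.5%, 19.1% and 34.2%. The other 8 genes, Tnf, Tnfsf9, Tnfsf10, Tnfsf15, Tnfrsf1a, Tnfrsf1b, Fas and Tnfrsf11a, were called higher in all 3 genotypes under each alternative tried, with the smallest value 0.35, for Tnfrsf11a in KO with library size alone.

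**Figure D3:**
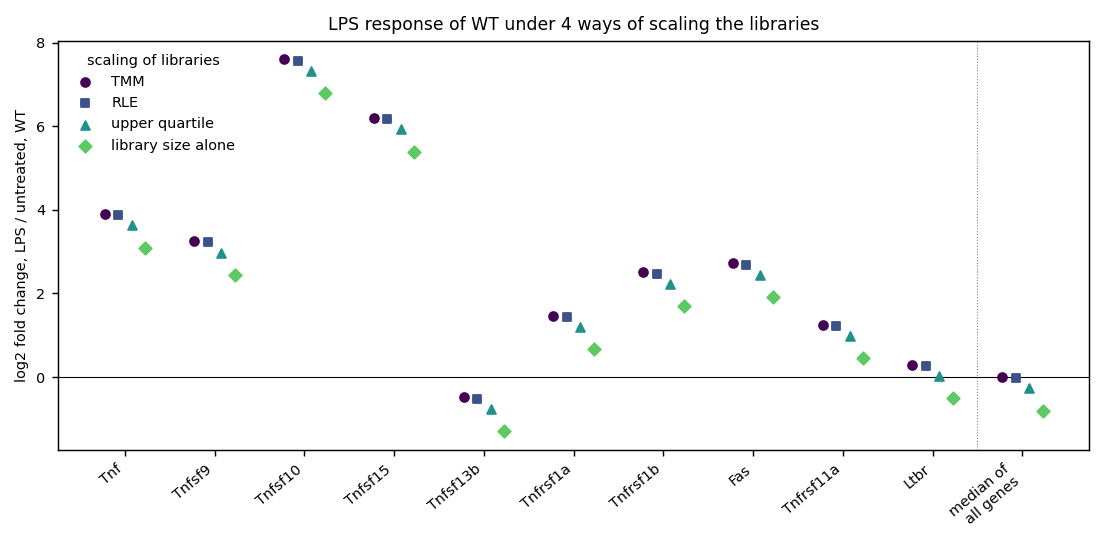
Log2 fold change of LPS against untreated in WT (vertical axis) for each gene and, right of the dotted line, the median of all genes, under TMM, median-of-ratios (RLE), upper quartile factors and library size alone. Library size alone lowers every point by about the shift of the median, -0.805, which takes Ltbr from 0.30 to -0.51, while Tnf, Tnfsf9, Tnfsf10, Tnfsf15, Tnfrsf1a, Tnfrsf1b, Fas and Tnfrsf11a stay above 0.

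Of 13 other ligands of the family, 8 could be tested, and in WT 5 rose and 2 fell after LPS. For these and the lists that follow, 30.4% of all genes were called higher and 31% lower in WT. The shares were 30.9% and 30.7% for KO, and 31.3% and 33.3% for dCIS. With library size alone the WT shares were 14% higher and 64.5% lower. Tnfsf4 (OX40 ligand) rose from 0.177 ± 0.0703 to 6.34 ± 1.50 CPM (log2 5.10), while Tnfsf12 (TWEAK) fell from 64.7 ± 5.66 to 24.2 ± 2.40 CPM (log2 -1.42). KO gave the same counts, and in dCIS 4 rose and 2 fell. The median log2 fold change of the 8 ligands in WT was 2.02, beside 0.00 over all genes. Untreated WT levels of Tnfsf4 and Lta were below the minimum count of the filter. They were tested only because other groups held more, so their rise was partly fixed by the filter. It is no support for the count or the median, and the same holds for any gene of the lists below that was near 0 untreated. Of 23 other receptors, 13 could be tested, of which 5 rose and 6 fell in both WT and dCIS, while KO had 4 and 6, and the WT median was -0.64. Cd40, the receptor through which T cells activate macrophages, rose from 14.0 ± 1.53 to 1596 ± 57.3 CPM (log2 6.83), Tnfrsf8 (CD30) by 3.50 and Tnfrsf14 (HVEM) by 1.78 on the log2 scale. Tnfrsf22 (log2 -2.47), a decoy receptor for TRAIL, Tnfrsf21 (DR6, log2 -1.72) and Tnfrsf13b (TACI, log2 -1.42), a receptor for BAFF and APRIL, fell. With library size alone, 4 of the 8 ligands rose and 2 fell, and 3 of the 13 receptors rose and 7 fell.

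**Figure D4:**
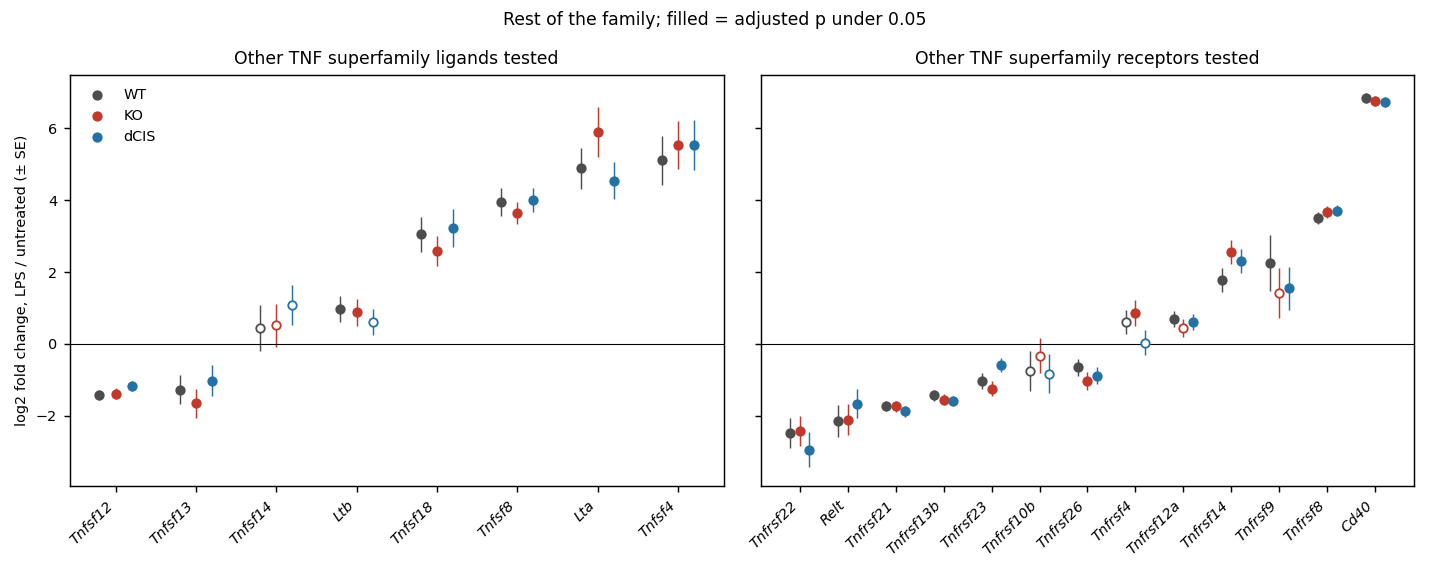
Log2 fold change of LPS against untreated (vertical axis, ± SE) for the 8 other ligands and 13 other receptors tested, ordered by their value in WT, with filled points for genes called by edgeR at an adjusted p under 0.05. Ligands run from Tnfsf12 at -1.42 in WT to Tnfsf4 at 5.10, and receptors from Tnfrsf22 at -2.47 to Cd40 at 6.83.

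Several of these genes sit next to each other on the chromosomes. By the order of tested genes in GRCm38, Tnf lies between Ltb and Lta, which encode the lymphotoxin subunits. Lta rose by 4.89 and Ltb by 0.98 on the log2 scale in WT, both from under 1 CPM (0.118 ± 0.0802 and 0.853 ± 0.386 CPM). Tnfsf15 neighbours Tnfsf8 (CD30 ligand), which rose by 3.94, and Tnfrsf1b neighbours Tnfrsf8, its receptor. Tnfsf9 neighbours Tnfsf14 (LIGHT), at a log2 fold change of 0.45 that was not called (adjusted p 0.557). Tnfrsf1a and Ltbr, with 1.47 and 0.30, are separated only by Scnn1a. Neighbours within 1 cluster thus had LPS values of 0.45 and 3.25 for Tnfsf14 and Tnfsf9, and of 0.98 and 3.91 for Ltb and Tnf. Lta is left out of this spread, since its rise was partly fixed by the filter. Whether the counting used strand is not given in the sources used here, so reads of overlapping neighbours cannot be told apart.

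Downstream of the receptors, 15 of 22 adaptors, kinases and ubiquitin enzymes rose in WT and 4 fell. Traf1, which pairs with TRAF2, rose from 15.8 ± 7.18 to 488 ± 47.2 CPM (log2 4.95), Rnf31, the catalytic subunit of the linear ubiquitin ligase, by 2.32, and Birc3 (cIAP2) by 2.30 on the log2 scale. Tab1 (log2 -0.99), Fadd (log2 -0.75), the adaptor that links death receptors to caspase-8, and Traf3 (log2 -0.66) fell. The median of this list was 0.47, and with library size alone 6 rose and 11 fell.

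Brakes on the pathway rose together with its ligands: 11 of 13 rose in each genotype and 1 fell (WT median 1.91). Tnfaip3 (A20) rose from 89.1 ± 15.4 to 1080 ± 111 CPM in WT (log2 3.60) and Nfkbia (IkB alpha) by 3.48, while Otulin, which removes linear ubiquitin chains, fell by 0.72 on the log2 scale. Usp18, an interferon-induced protease that also restrains NF-kB activation, rose by 5.48. Of 9 death effectors, 7 rose and 0 fell in each genotype (WT median 2.10). They included Mlkl, the executor of necroptosis (log2 3.44), and Cflar (log2 3.35), whose product FLIP holds caspase-8 in check and which stands in both lists. With library size alone, 9 of the 13 brakes rose and 2 fell in WT, and 5 of the 9 effectors rose and 2 fell.

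Genes that release TNF or act on its mRNA were split, with 8 of 12 rising and 2 falling in WT (median 0.79). Zfp36 (tristetraprolin), which destabilises Tnf mRNA, rose from 139 ± 16.3 to 1404 ± 66.5 CPM (log2 3.33), whereas its relatives Zfp36l1 and Zfp36l2 fell by 3.10 and 2.58 on the log2 scale. Rhbdf2 (iRhom2), which carries the TNF sheddase to the cell surface, rose by 2.98, and Mapkapk2, the kinase that holds tristetraprolin in check, by 2.54. Among 15 tested secreted and adhesion genes known to respond to TNF, 14 rose and 0 fell in each genotype (WT median 4.62), led by Il6 (log2 10.90), Cxcl10 (log2 10.00) and Ccl5 (log2 9.77). LPS also acts on these genes directly, so they are no measure of TNF signalling here. With library size alone, 4 of the 12 release and mRNA genes rose and 3 fell in WT, and 14 of the 15 responsive genes rose.

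Loss of Hdac9 went with small differences in untreated cells. Of the 10 genes, 2 were called in KO against WT, both higher, where 5.03% of all genes were called higher and 7.31% either way. Tnfsf10 was higher in all 4 KO libraries than in any WT library (1.08 to 2.89 against 0.792 to 1.05 CPM), at 23 to 72 counts per KO library. Its log2 difference was 0.97 (SE 0.265, adjusted p 0.0291). Tnfrsf11a stood at 101, 81.3, 101 and 98.2 CPM in KO against 69.9 to 78.3 CPM in WT, likewise without overlap (log2 0.36, SE 0.0974, adjusted p 0.0309). The next were Tnfsf9 at -0.46 (adjusted p 0.113) and Tnfrsf1b at 0.25 (adjusted p 0.174), neither called. Without the filter Tnfsf9 was called lower (-0.47, adjusted p 0.0407), and DESeq2 called Tnfrsf1b higher (0.29, adjusted p 0.045). The median over the 10 genes was 0.09, beside 0.00 over all genes.

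Both calls were close to the threshold. That of Tnfsf10 was lost without WT library 1 (adjusted p 0.0558), 2 (0.112) or 3 (0.0772), without KO library 2 (0.118) or 3 (0.0673), and in a fit of these groups alone (0.0519). Without KO library 2, the highest, its log2 fold change was 0.66. That of Tnfrsf11a was lost without any 1 of the WT libraries (0.0507, 0.101, 0.0863 and 0.0634 in turn) and without KO library 1 (0.089), 3 (0.083) or 4 (0.0634), but was kept without KO library 2, the lowest (log2 0.43, adjusted p 0.0144). It was also lost without the filter (0.0762), with library size alone (0.0542) and with upper quartile factors (0.0567). The direction stayed the same in each of these fits.

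After LPS none of the 10 genes was called between KO and WT by edgeR's test, where 2.74% of all genes were called, and 3 had an unadjusted p under 0.05. These were Tnfsf10 (log2 0.42, SE 0.152, adjusted p 0.119), higher in all 4 KO libraries, Tnfsf15 (log2 0.39, SE 0.144, adjusted p 0.121) and Tnfrsf11a (log2 0.27, SE 0.097, adjusted p 0.118). DESeq2 called Tnfrsf11a (adjusted p 0.0437), and a fit of these groups alone called Tnfsf10 (0.0144) and Tnfsf15 (0.0432). Tnf differed by 0.08 (95% interval -0.30 to 0.46). The LPS response of KO minus that of WT was called for none of the 10 genes, with 0.0203% of all genes called. Tnfsf9 had an unadjusted p under 0.05, at 0.50 (SE 0.241), and Tnfsf10 was at -0.55 (95% interval -1.15 to 0.05), each at an adjusted p that rounds to 1. Higher Tnfsf10 and Tnfrsf11a in KO was thus a call in untreated cells, and whether LPS changed the difference was not shown either way.

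No difference between dCIS and WT was called for these genes. Untreated, 0.0542% of all genes were called, none of the 10 had an unadjusted p under 0.05, and the values lay between -0.21 (Tnf) and 0.27 (Tnfsf13b), with 95% intervals reaching from -0.60 to 0.88. After LPS, 0.258% of all genes were called, and Tnfrsf1a alone had an unadjusted p under 0.05: all 4 dCIS libraries (354 to 417 CPM) were below the 4 WT libraries (420 to 458 CPM), by a log2 value of -0.19 (SE 0.0899, adjusted p 0.377). Its 2 lowest dCIS libraries were 3 and 4, the pair with fewer genes detected. The LPS response of dCIS minus that of WT was called for none of the 10, as for 0% of all genes, and none had an unadjusted p under 0.05.

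**Figure D5:**
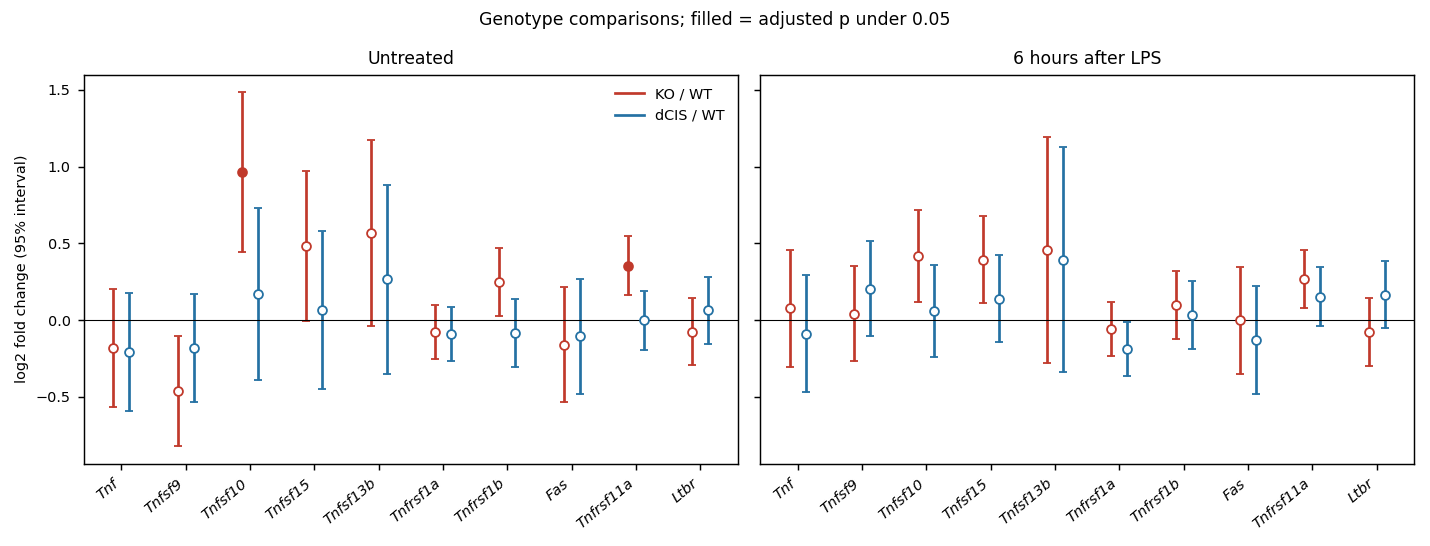
Log2 fold change of KO against WT and dCIS against WT (vertical axis, with 95% interval) for each gene, untreated on the left and after LPS on the right, with filled points where edgeR called the difference. Tnfsf10 at 0.97 and Tnfrsf11a at 0.36 in untreated KO are the filled points, and the dCIS intervals include 0 except that of Tnfrsf1a after LPS, at -0.19.

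KO and dCIS were also compared directly, which shares the KO libraries with the comparison above. Untreated, 3 of the 10 genes were called, all higher in KO, where 12.1% of all genes were called higher and 21.3% either way. They were Tnfsf10 (log2 0.80, SE 0.258, adjusted p 0.0271), Tnfrsf11a (log2 0.36, SE 0.0974, adjusted p 0.0122) and Tnfrsf1b (log2 0.33, SE 0.113, adjusted p 0.0388), and the libraries overlapped for each. Tnfrsf1b stood at 613, 648, 638 and 515 CPM in KO and 494, 518, 453 and 455 CPM in dCIS, so only KO library 4 fell within the dCIS range. A fit of these groups alone called none (adjusted p 0.114, 0.0875 and 0.0754 in that order). Without KO library 2, Tnfsf10 (0.177) and Tnfrsf1b (0.0861) were not called, and without dCIS library 3 none was (0.057 for Tnfsf10, 0.0645 for Tnfrsf11a, 0.101 for Tnfrsf1b). Either KO library 3 or dCIS library 1 or 4 left out also ended the calls of Tnfsf10 (0.0587, 0.0852 and 0.0681) and Tnfrsf1b (0.0926, 0.0656 and 0.0948), and KO library 1 left out ended that of Tnfrsf1b (0.0802). Tnfrsf1b was also not called without the filter (0.0738) or with upper quartile factors (0.0867). After LPS none was called, with 2.18% of all genes called, and Tnfsf10 (log2 0.36) and Ltbr (log2 -0.24) had an unadjusted p under 0.05. Without dCIS LPS libraries 1 and 2, Tnfsf10 (log2 0.61, adjusted p 0.0176) and Tnfsf15 (log2 0.50, adjusted p 0.0392) were called.

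Among the other genes of the pathway, Adam17, the protease that sheds TNF and both TNF receptors from the cell surface, was called between KO and WT both untreated and after LPS. It was at 276, 236, 246 and 240 CPM in untreated WT, 427, 349, 440 and 388 CPM in KO, and 255, 279, 224 and 221 CPM in dCIS. Every KO library was above every WT and dCIS library. The log2 fold change was 0.68 against WT (SE 0.114, adjusted p 0.0013) and 0.71 against dCIS (SE 0.114, adjusted p 0.000501), and both were called under all 17 alternatives, with values from 0.62 to 0.75 and 0.63 to 0.78. After LPS, Adam17 was at 654, 568, 504 and 578 CPM in WT, 848, 895, 780 and 711 CPM in KO, and 699, 717, 532 and 553 CPM in dCIS. KO stayed above WT (log2 0.49, SE 0.114, adjusted p 0.0248), a call lost without WT LPS library 2 (0.0886) or 3 (0.151) or KO LPS library 1 (0.102), 2 (0.0649) or 3 (0.0558). Against dCIS after LPS the log2 value was 0.37 (adjusted p 0.083), not called, and the libraries overlapped. Here 4 of 19 alternatives did call Adam17, with values from 0.19 to 0.59 over all of them. LPS itself raised Adam17 by 1.21 on the log2 scale in WT, with values from 0.40 to 1.27 and a call under all 17 alternatives. In KO the value was 1.01, with 0.19 to 1.06 and a call under 17 of 18 alternatives.

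Adam17 lies on chromosome 12, as Hdac9 does, with 36 tested genes between them in GRCm38 order. Of the 10 nearest tested neighbours of Adam17, 0 were called between KO and WT untreated and 1 (Iah1, lower in KO) after LPS. Of those of Tnfrsf11a on chromosome 1, 2 of 10 (Pign and Zcchc2) were called in untreated KO, both higher, and of those of Tnfsf10 on chromosome 3, 3 of 10, with Fndc3b and Pld1 higher and Rpl22l1 lower. The same count was 2 of 10 around Tnf, 1 of 10 around each of Tnfsf9, Tnfsf13b, Tnfrsf1b and Fas and 0 around Tnfsf15, Tnfrsf1a and Ltbr, where 7.31% of all genes were called untreated and 2.74% after LPS. What these positions have to do with the differences was not tested. The only other gene of the pathway lists called in KO against WT was Mmp9, a matrix protease, and only in untreated cells. There it was at 83.0, 29.5, 136 and 100 CPM in KO and 16.2 to 32.6 CPM in WT (log2 1.86, SE 0.367, adjusted p 0.00841). KO library 2 fell within the WT range. Adaptors, brakes, death effectors, other ligands and other receptors had 0 of 22, 13, 9, 8 and 13 tested genes called in KO against WT, untreated or after LPS, and 0 of all lists in dCIS against WT. With RLE factors 2 adaptors, 2 brakes and 1 death effector were called higher in untreated KO, and with library size alone or upper quartile factors 1 adaptor and 1 brake were called lower. After LPS, 1 brake was called lower with library size alone.

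Untreated KO against dCIS had more calls. Birc3 (log2 0.46), Ikbkg (0.39), Map3k7 (0.34) and Tab2 (0.32) were higher and Fadd (-0.32) lower among the adaptors, and Itch (0.48) and Cyld (0.31) higher and Otulin (-0.55) lower among the brakes. Xiap (0.48), an inhibitor of caspases, was higher, as were Rc3h1 (0.49) and Rhbdf2 (0.44), which with Adam17 make 3 of the 12 release and mRNA genes. Of the TNF-responsive genes, Mmp9 (log2 2.14), Ptgs2 (0.96) and Icam1 (0.48) were higher. After LPS, Mmp9 was called between KO and dCIS (log2 1.50, adjusted p 0.0341), a call kept only without KO LPS library 2 or dCIS LPS library 2 when single libraries were left out. Untreated, 5 of 22 adaptors, 3 of 13 brakes, 1 of 9 death effectors, 3 of 12 release and mRNA genes, 3 of 15 TNF-responsive genes and 0 of 8 and 0 of 13 other ligands and receptors were called, shares near or below the 21.3% of all genes.

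The 10 genes followed different courses over the 6 groups. Likeness was measured as the root mean square difference of the 6 group means of log2 CPM, each profile centred on its own mean, over 11582 named genes, and is a description without a test. Nearest to Tnf were Vnn3 (0.0457) and Stx11 (0.0589), and nearest to Tnfsf9 were Tnfrsf8 (0.0854) and Tmem171 (0.0878). Tnfsf10 was followed by Heatr9 (0.183) and Gbp2 (0.189), Tnfsf15 by Trim30c (0.0964), and Tnfsf13b by Tnpo1 (0.0735) and Tbl1xr1 (0.0776). For the receptors the nearest were H2-M3 (0.0373) and Mbd2 (0.0387) for Tnfrsf1a, Ctsc (0.05) and Adar (0.0534) for Tnfrsf1b, and Mitd1 (0.0446) and Fam241a (0.0469) for Fas. Tnfrsf11a lay nearest to Zfp658 (0.027) and Stat5b (0.0338), and Ltbr to Msl1 (0.0234) and Tmx1 (0.0285). Within the 10 genes, the nearest pairs were Fas and Tnfrsf1b (0.189) and Tnfrsf11a and Tnfrsf1a (0.192). Tnf and Tnfsf9 were 0.29 apart and Tnfrsf1a and Tnfrsf1b 0.539, while Tnfsf10 and Tnfsf13b were 3.90 apart. The 6 group means share libraries with every comparison above, so likeness is no separate evidence of it.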

How the data were processed

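RNA of 24 libraries (6 groups of 4) was captured on oligo-dT beads and sequenced from both ends, per the labels' protocols. Whole-number counts per gene, made and deposited by the authors, are the unit used. STAR, edgeR and build mm39 are named in the submitters' processing notes, without versions. The counting program, strand setting and annotation are unstated in the sources used here. Of 56941 gene IDs, 51948 (91.2%) matched a symbol, and the others held 0.562% to 3.44% of a library's counts. Totals ran from 14636058 to 19181707, replicates differed beyond sampling noise.

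All libraries entered 1 edgeR 4.0.16 quasi-likelihood fit (R 4.3.3) with TMM factors, a mean per group and edgeR's group filter (minimum count 10, minimum total 15; 14757 genes). Tests are 2-sided, Benjamini-Hochberg adjusted over all genes, called under 0.05, and SEs are Wald errors of log2 fold changes with the quasi-likelihood variance. CPM uses TMM-scaled library sizes. Alternatives were RLE factors, no filter, a stricter filter (1 CPM in 4 libraries), a replicate block over all groups or within genotypes, the compared groups alone, DESeq2 1.42.0, leaving out each library, both KO libraries numbered 2, dCIS LPS libraries 3 and 4 or 1 and 2, and, chosen after seeing the data, library size alone and upper quartile factors. The receptor ratio adds 0.5 counts (alternative 10) and uses an exact permutation test. The script was tested on simulated data.

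Same-numbered libraries deviated together (every correlation over 0.1) between untreated and LPS-treated WT (0.113 to 0.15) and KO (0.155 to 0.296), and untreated KO and dCIS (0.114 to 0.359). Between untreated and LPS-treated dCIS the correlations ran from 0.0396 to 0.339. In each genotype all 4 untreated libraries correlated most with the LPS-treated library of the same number. Between untreated KO and dCIS, 3 did so. This is from the data alone, since the labels do not say what a number marks. The main fit does not use these pairs, while the block within genotypes does. Lists were other ligands, other receptors, adaptors with kinases and ubiquitin enzymes, brakes, death effectors, TNF release and mRNA control, TNF-responsive genes, and markers of macrophages, T and NK cells, B cells, neutrophils, dendritic cells, osteoclasts, and fibroblasts with endothelial cells. Named were the 10 genes, Hdac9, up to 3 called genes per list and direction with at least 5 CPM that moved most in WT after LPS, list genes called between genotypes, and the 2 genes most like each of the 10; family genes that neighbour the 10, called neighbours and untested ligands and receptors were named outside this rule, after their values were seen. Some genes that the rule names are not reported here. The 10 genes and the lists were chosen with earlier results of these data known. Coordinates of the counted genes are not used here, since the annotation at hand is GRCm38, and protein sequences are not used here.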

Additional observations from a re-analysis of the deposited data

Results flagged for a closer look

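In 6 of 60 sets of 4 libraries (10 genes in 6 groups), 1 library lay apart from the other 3 by Dixon's test at the 95% level, where chance flags about 5% of sets. Tnf was high in untreated WT library 1 (169 CPM, the others at 101) and in KO LPS library 2 (2371 CPM, the others 1663 to 1729). Fas was high in the same KO LPS library 2 (116 CPM, the others 65.6 to 72.6). Tnfsf9 was high in untreated dCIS library 4 (8.96 CPM, the others 5.06 to 5.45). Tnfsf10 was low in untreated WT library 2 (0.792 CPM, or 17 counts, the others 1.02 to 1.05). Tnfrsf11a was low in untreated KO library 2 (81.3 CPM, the others 98.2 to 101). Of the 6, 3 are in KO libraries numbered 2, which are left out in the alternatives given above.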

How the results depend on the processing

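Ltbr reversed in the LPS comparisons with library size alone (-0.51 in WT, -0.53 in KO, -0.35 in dCIS). The number of the 10 genes called in untreated KO against WT, 2, was 1 with library size alone, upper quartile factors, the compared groups alone or without both KO libraries numbered 2, and 0 to 1 when single libraries were left out. Without the filter Tnfrsf11a was lost and Tnfsf9 gained, and DESeq2 gained Tnfrsf1b. In untreated KO against dCIS the number, 3, was 0 with the compared groups alone, 1 without both KO libraries numbered 2, and 0 to 3 without single libraries. After LPS, KO against WT went from 0 to 1 without the filter, 1 with DESeq2 and 2 with the compared groups alone, and KO against dCIS from 0 to 2 without dCIS LPS libraries 1 and 2. The cause was not tested. The replicate block over all groups gave 1 called gene in KO against WT after LPS, Tnfsf10 (0.41, adjusted p 0.0471), where the numbers do not pair the libraries. Adam17 in KO against dCIS after LPS passed with that block (0.38, adjusted p 0.0304). The block changed no other call of these genes. Over 2107 values of the 10 genes under alternatives, a call was lost in 15 LPS and 36 other values and gained in 6 and 9, and 123 values changed sign with neither fit calling them.

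Over all genes, KO against WT untreated had 1079 calls, from 90 without WT library 2 to 2351 with the compared groups alone, and KO against dCIS untreated 3147, from 1198 without dCIS library 3 to 4488 without dCIS library 2. After LPS these were 405 (68 without WT LPS library 3 to 1995 with the compared groups alone) and 322 (62 without dCIS LPS libraries 3 and 4 to 3080 without 1 and 2). dCIS against WT had 8 untreated (5 without WT library 3 to 80 without the filter) and 38 after LPS (6 without dCIS LPS libraries 3 and 4 to 1067 without 1 and 2). The differences of response had 3 for KO (2 without WT library 4 to 12 without the filter) and 0 for dCIS (up to 221 without dCIS LPS libraries 1 and 2). The share of calls that were higher in untreated KO than in WT was 68.8%, 79.5% with RLE, 54.2% with library size alone and 45.3% with upper quartile factors. After LPS it was 84.2%, 60.5% with library size alone and 65.7% with upper quartile factors. Against dCIS it was 56.6% untreated (37.4% with upper quartile factors) and 61.8% after LPS (33.3% with library size alone, 46.4% with upper quartile factors). Depth limits Tnfsf13b, with 6 to 49 counts, and untreated Tnfsf10 and Tnfsf15, with 12 to 72 counts.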
